A study of Mus musculus with 12 samples.

Results

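This report describes 7 cytokine genes in natural killer T (NKT) cells: Ifng, Il4, Il2, Il10, Il13, Csf2 and Tgfb1. They were taken by symbol from the 23284 genes of each of 2 expression tables, and all 7 were found in both. The 12 libraries held 3 from each of 4 groups: cKO and YFP+ NKT cells of the thymus, and cKO and YFP+ NKT cells of the liver. The cKO cells, called DN-origin by the study, came from C57BL/6 mice with an E8III-Cre transgene and floxed Rag2, a gene needed to build T cell receptors. The YFP+ cells, called DP-origin, came from C57BL/6 mice with E8III-Cre and a Rosa26 reporter behind a loxP-flanked STOP. Both kinds of mouse carry the Cre, which is active from the CD4+CD8+ double-positive (DP) thymocyte stage, so NKT cells of cKO mice are taken to have rearranged their receptor at the earlier double-negative (DN) stage. The origin of the cells and the genotype of the mouse cannot be told apart in this design. Ages and stimulation are not given in the sources used here, and the cells came straight from tissue, gated as 7AAD- (live), TCRb+ and CD1d dimer+, without CD45R, CD4 or CD8 on their surface.

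NKT cells recognise lipids held by CD1d. They are known for carrying cytokine messages before they are activated, and for releasing interferon-gamma and interleukin-4 within hours of stimulation. Subsets of NKT cells are often described by the cytokine they favour, with interferon-gamma marking type 1 and interleukin-4 marking type 2 cells. The transcripts measured here are messages in sorted cells and not secreted protein.

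The values are FPKM, fragments scaled to transcript length and to the mapped total of a library, so they can be set against each other between genes within a library. Tests were made on log2(FPKM + 1) with limma, a linear model fitted over all genes that averaged 1 FPKM or more, and a gene was called where its adjusted p was under 0.05. The thymus and liver tables were normalized separately, so levels were compared within a tissue and only set side by side between tissues. The titles and column headers give the liver groups used here, but a separate description of each liver library gives the opposite kind of mouse, in 6 of 6 cases. If the descriptions were right, every liver direction would turn round. Rag2 was listed at 0 in all 3 liver cKO libraries and at 1.365, 0.985 and 1.075 FPKM in liver YFP+ libraries, which matches the titles. This check is not specific to the deletion, since Rag1, which is not floxed, was also lower, at 0.196, 0.146 and 0.223 FPKM in liver cKO libraries, against 1.957, 1.328 and 1.886 FPKM in liver YFP+ libraries. The thymus labels could not be checked in this way, since Rag2 was at 0 FPKM in 5 thymus libraries and at 0.015 FPKM in the other, cKO replicate 2.

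Of the NKT and T cell identity genes, 10 of 10 were present in every group, with summed levels of 1307 to 1362 FPKM in thymus cKO and 1560 to 1754 FPKM in thymus YFP+ libraries, and of 3687 to 3748 FPKM in liver cKO and 3878 to 4322 FPKM in liver YFP+ libraries. Replicates of a group correlated across genes at Pearson r of 0.972 to 0.991. Some libraries stood apart within their group. The heat shock gene Hspa1a, which cells switch on under stress and which shares reads with a near-identical copy, had 90.7, 743 and 751 FPKM in thymus cKO libraries, against 6.045, 6.18 and 4.79 FPKM in thymus YFP+ libraries. It thus separated the thymus groups as well as cKO replicate 1 from the other cKO libraries. In the liver it had 1.02 to 1.56 FPKM in cKO and 0.684 to 1.505 FPKM in YFP+ libraries, which overlapped. Liver YFP+ replicate 1 had the highest value of its group for Ifng, Il4, Il2, Csf2 and Tgfb1.

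The promoter regions of the 3 genes on which the results turn are shown here because regions of this kind are where the factors of activated T cells are known to act on these genes. Each is a window of 300 bases that ends shortly after the annotated start and comes from RefSeq (build GRCm38.p6, 5′ to 3′ on the gene's strand). Capitals mark a match to the NFAT core GGAAA on either strand (TTTCC on the other strand) or to the TATA box TATAAA. The Ifng window is chr10:118440796-118441095 on the plus strand, the Il4 window chr11:53618616-53618915 on the minus strand and the Il2 window chr3:37125905-37126204 on the minus strand.
Ifng: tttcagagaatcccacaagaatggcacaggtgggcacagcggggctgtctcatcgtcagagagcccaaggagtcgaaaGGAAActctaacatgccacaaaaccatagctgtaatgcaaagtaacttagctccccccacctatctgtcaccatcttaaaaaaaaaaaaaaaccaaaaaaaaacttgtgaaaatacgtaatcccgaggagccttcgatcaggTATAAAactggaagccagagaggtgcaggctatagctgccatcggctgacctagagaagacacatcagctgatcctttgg
Il4: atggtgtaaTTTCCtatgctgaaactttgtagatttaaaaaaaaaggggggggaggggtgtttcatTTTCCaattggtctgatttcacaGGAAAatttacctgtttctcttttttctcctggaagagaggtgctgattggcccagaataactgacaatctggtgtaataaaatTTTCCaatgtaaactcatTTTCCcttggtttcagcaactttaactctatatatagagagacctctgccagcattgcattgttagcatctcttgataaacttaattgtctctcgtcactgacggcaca
Il2: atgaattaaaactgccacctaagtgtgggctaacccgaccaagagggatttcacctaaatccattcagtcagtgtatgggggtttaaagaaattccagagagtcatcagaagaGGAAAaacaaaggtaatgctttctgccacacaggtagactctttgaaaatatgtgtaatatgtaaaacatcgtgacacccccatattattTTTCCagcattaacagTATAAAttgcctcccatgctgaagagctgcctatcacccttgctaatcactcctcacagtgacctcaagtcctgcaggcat
NFAT is the factor that calcium signals release to the nucleus, and its core was found 1 time in the Ifng window, 5 times in this Il4 window and 2 times in the Il2 window. The windows of Il13 and Csf2 held 4 and 3 matches, that of Tgfb1 held 0, and a second Il4 window held 1. So short a motif is common: 61.3% of all 32851 windows hold it. The TATA box, searched as the exact letters TATAAA, was in the Ifng, Il2 and Il13 windows and is in 13.6% of all windows. These letters were not in either Il4 window or in those of Csf2 and Tgfb1. The AP-1 motif TGANTCA, searched on both strands, was in none of these windows and is in 7.81% of all windows. These matches are letters in a window and do not show binding. The promoter of Tgfb1 differed in make-up, with 77.0% G and C, against 46.0% in Ifng, 42.0% in Il2 and 38.0% in this Il4 window.

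Ifng encodes interferon-gamma, which activates macrophages and raises antigen presentation. It was the highest of the 7 in every library other than those of thymus YFP+ cells. In the thymus it stood at 41.0, 71.8 and 63.2 FPKM in cKO libraries (replicates 1, 2 and 3), against 18.7, 24.3 and 11.5 FPKM in YFP+ libraries. All cKO libraries were above all YFP+ libraries, although the cKO libraries themselves spread widely. The means were 58.7 ± 15.9 FPKM in cKO and 18.2 ± 6.44 FPKM in YFP+ cells (SD, n = 3 each), a ratio of 3.23. The log2 difference was 1.66 ± 0.28 (SE), or 1.82 relative to the median tested gene, and Ifng rose in cKO cells (limma adjusted p = 0.00824, n = 3 each). Hspa1a moved with it in the thymus, and cKO replicate 1 was the lowest cKO library for both genes. The part of cell stress in the level of Ifng was not tested.

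In the liver the direction was the other way. Ifng had 34.0, 31.1 and 32.9 FPKM in cKO libraries, against 59.6, 56.4 and 57.8 FPKM in YFP+ libraries. The groups did not overlap, and the replicates of each lay close together. The means were 32.6 ± 1.47 FPKM in cKO and 57.9 ± 1.57 FPKM in YFP+ cells (SD, n = 3 each), a ratio of 0.564. Ifng fell in liver cKO cells by 0.81 on the log2 scale, or by 0.70 relative to the median tested gene (limma adjusted p = 0.000366, n = 3 each). The liver difference minus the thymus difference was -2.47 ± 0.32 (SE; 95% interval -3.16 to -1.77), which passed the test over all 12 libraries (limma adjusted p = 0.00061).

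**Figure D1:**
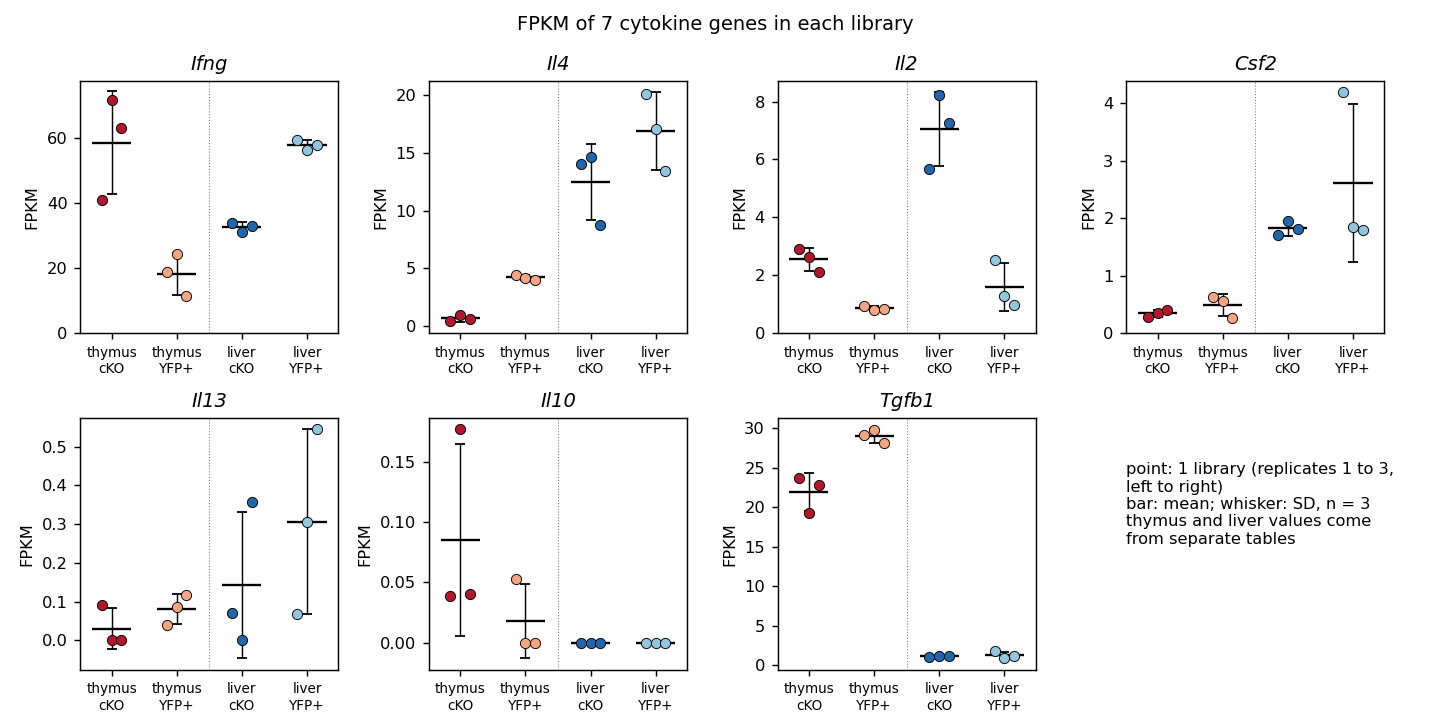
FPKM of the 7 cytokine genes (vertical axes, a scale for each gene) in the 12 libraries, cKO left of YFP+ in each tissue. Points are libraries, bars are means and whiskers are SDs (n = 3). Ifng lies at 41.0 to 71.8 FPKM in thymus cKO above 11.5 to 24.3 FPKM in thymus YFP+ libraries, and at 31.1 to 34.0 FPKM in liver cKO below 56.4 to 59.6 FPKM in liver YFP+ libraries.

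Il2 encodes interleukin-2, the growth factor that activated T cells make for themselves and their neighbours. It was higher in cKO cells of both tissues. In the thymus it had 2.905, 2.64 and 2.12 FPKM in cKO libraries, against 0.935, 0.782 and 0.835 FPKM in YFP+ libraries. In the liver it had 5.68, 8.22 and 7.25 FPKM in cKO libraries, against 2.53, 1.26 and 0.976 FPKM in YFP+ libraries. The groups did not overlap in either tissue. The means gave ratios of 3.0 in the thymus (2.56 ± 0.400 FPKM in cKO, 0.851 ± 0.0777 FPKM in YFP+ cells) and of 4.44 in the liver (7.05 ± 1.28 FPKM in cKO, 1.59 ± 0.825 FPKM in YFP+ cells; SD, n = 3 each).

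Il2 rose in cKO cells by 0.94 ± 0.12 on the log2 scale in the thymus (SE; limma adjusted p = 0.00211, n = 3 each) and by 1.67 ± 0.23 in the liver (limma adjusted p = 0.00181, n = 3 each). Relative to the median tested gene these differences were 1.10 and 1.78. The liver difference minus the thymus difference was 0.73, with a 95% interval of 0.15 to 1.32, and did not pass the test (limma adjusted p = 0.0944, n = 3 each). Without liver YFP+ replicate 1, the library with the highest Il2 of its group, that difference was 0.98 and passed (limma adjusted p = 0.00934). Because its mean in thymus YFP+ cells was under 1 FPKM, Il2 entered the thymus test and the test between tissues through the thymus cKO group, where it is high.

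Il4 encodes interleukin-4, which drives type 2 helper cells and the switch of B cells to IgE. In the thymus it had 0.432, 0.969 and 0.617 FPKM in cKO libraries, against 4.44, 4.197 and 4.02 FPKM in YFP+ libraries. The groups were far apart, with means of 0.673 ± 0.273 FPKM in cKO and 4.22 ± 0.211 FPKM in YFP+ cells (SD, n = 3 each), so that the YFP+ mean was 6.27 times the cKO mean. Il4 fell in thymus cKO cells, with a log2 difference of -1.65 ± 0.13 (SE; limma adjusted p = 0.000241, n = 3 each), or -1.49 relative to the median tested gene. With a cKO mean under 1 FPKM, it entered the thymus test and the test between tissues through the thymus YFP+ group.

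In the liver Il4 was the second highest of the 7, with 14.1, 14.6 and 8.735 FPKM in cKO libraries, against 20.1, 17.1 and 13.4 FPKM in YFP+ libraries. These groups overlapped, since YFP+ replicate 3 lay below cKO replicates 1 and 2. The means of 12.5 ± 3.25 FPKM in cKO and 16.9 ± 3.36 FPKM in YFP+ cells (SD, n = 3 each) gave a log2 difference of -0.42, with a 95% interval of -0.89 to 0.05, which did not pass the test (limma adjusted p = 0.168, n = 3 each). It passed in a fit with the replicate number as a block (limma adjusted p = 0.0448). The liver difference minus the thymus difference was 1.23 ± 0.27 (SE; 95% interval 0.65 to 1.81), which passed (limma adjusted p = 0.011, n = 3 each).

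Tgfb1 encodes transforming growth factor beta 1, which is made in a latent form and restrains T cells once activated. In the thymus it had 23.8, 19.2 and 22.8 FPKM in cKO libraries, against 29.1, 29.8 and 28.1 FPKM in YFP+ libraries. The groups did not overlap. Their means of 21.9 ± 2.39 FPKM in cKO and 29.0 ± 0.873 FPKM in YFP+ cells (SD, n = 3 each) gave a log2 difference of -0.39 ± 0.09 (SE), or -0.23 relative to the median tested gene, which passed the test (limma adjusted p = 0.0284, n = 3 each). This call held in 4 of 13 alternatives. It was lost with median-ratio scaling of the libraries (log2 difference -0.20, limma adjusted p = 0.181) and when any library other than cKO replicate 1 was left out (limma adjusted p of 0.067 to 0.0869).

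In the liver Tgfb1 had 1.04, 1.13 and 1.16 FPKM in cKO libraries, against 1.74, 0.938 and 1.14 FPKM in YFP+ libraries. The groups overlapped and the log2 difference of -0.09 (95% interval -0.46 to 0.28) did not pass the test (limma adjusted p = 0.703, n = 3 each). Nor did its difference between tissues of 0.30 (limma adjusted p = 0.289, n = 3 each).

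The level of Tgfb1 was far apart in the 2 tables, which has no test. It averaged 1.19 FPKM over the 6 liver libraries and 25.5 FPKM over the 6 thymus libraries, a log2 difference of -3.60. Of the 10316 genes that averaged 1 FPKM or more in either table, 0.0969% were as low or lower on this measure. Its longest coding transcript has 62.5% G and C, in the highest of 10 equal bins of genes by that content, where the median difference between the tables was -0.21, against 0.285 to 0.469 in the other bins. Within its bin, 0.7% of genes were as low or lower. GC values were matched for 83.1% of the genes. Each tissue has its own table, named as paired for the thymus and as single for the liver. Tissue and what these names stand for therefore cannot be told apart. The part of tissue, library preparation and base composition in this difference was not tested. Il4 went the other way, at 14.7 FPKM in the liver and 2.45 FPKM in the thymus table, a log2 difference of 2.18, with 42.3% G and C.

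**Figure D2:**
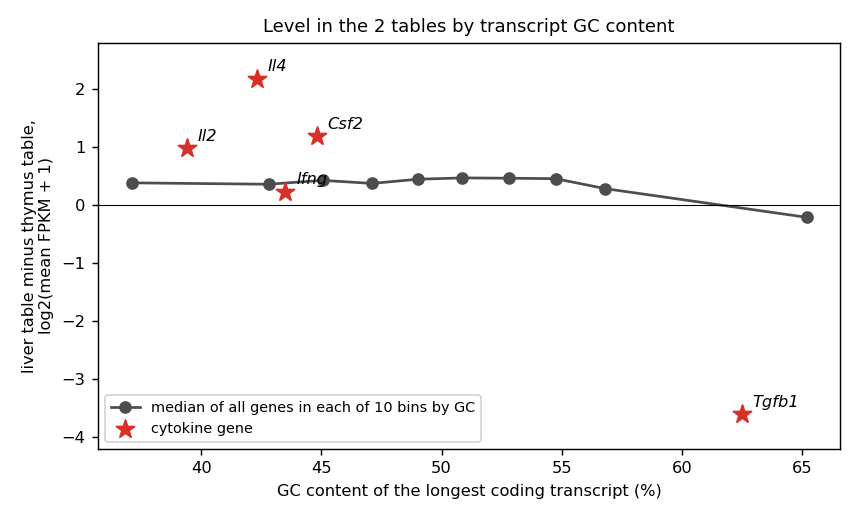
GC content of the longest coding transcript (horizontal axis, percent) against the log2 difference of mean FPKM + 1 between the liver and the thymus table (vertical axis). The line gives the median of all genes in each of 10 bins by GC content and stars are cytokine genes. The highest bin has a median of -0.21 and Tgfb1 lies at -3.60.

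Csf2, Il13 and Il10 were low. Csf2 encodes GM-CSF, which stimulates granulocytes and macrophages. In the thymus it had 0.274, 0.347 and 0.402 FPKM in cKO libraries, against 0.620, 0.566 and 0.260 FPKM in YFP+ libraries, too low to enter the test, and the groups overlapped. In the liver it had 1.70, 1.96 and 1.80 FPKM in cKO libraries, against 4.19, 1.85 and 1.79 FPKM in YFP+ libraries. Only YFP+ replicate 1 stood above the others, and the log2 difference of -0.29 did not pass (limma adjusted p = 0.393, n = 3 each). Without that library it was -7.72e-05.

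Il13 encodes interleukin-13, a relative of interleukin-4 that drives mucus production. It stayed between 0 and 0.091 FPKM in thymus cKO, 0.040 and 0.118 FPKM in thymus YFP+, 0 and 0.357 FPKM in liver cKO, and 0.069 and 0.545 FPKM in liver YFP+ libraries. Il10 encodes interleukin-10, which damps macrophages and dendritic cells. It reached 0.177 FPKM in thymus cKO and 0.053 FPKM in thymus YFP+ libraries and was listed at 0 in all 6 liver libraries. A listed 0 can be a failed estimate, and no read totals were given from which a limit could be set. Neither gene entered the test. In a fit without the minimum level neither passed (limma adjusted p = 0.417 for Il13 and 0.384 for Il10 in the thymus, and 0.51 for Il13 in the liver, n = 3 each).

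Counted together, 4 of the 7 genes were tested in the thymus, of which 2 rose (Ifng and Il2) and 2 fell (Il4 and Tgfb1), while 15.7% of all 9097 tested genes were called there, 2.64% as higher and 13.1% as lower. In the liver 5 were tested, of which 1 rose (Il2) and 1 fell (Ifng), while 27.2% of all 9591 tested genes were called, 7.49% as higher and 19.7% as lower. For the difference between tissues 4 were tested, of which 1 was higher (Il4) and 1 lower (Ifng) in the liver, while 13.7% of all 8372 tested genes were called, 8.37% as higher and 5.35% as lower. Groups without overlap were common, at 42.9% of tested genes in the thymus and 44.3% in the liver. The median log2 difference of all tested genes was -0.16 in the thymus and -0.11 in the liver, and median-ratio scaling brought it to -0.00194 and -0.0109. The directions of Ifng, Il2 and Il4 were the same under that scaling.

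The make-up of the cytokine message differed between the groups. Of the summed FPKM of the 7 genes, Ifng made up 68.7 ± 8.01% in thymus cKO, against 33.7 ± 7.60% in thymus YFP+ cells, and 59.2 ± 4.32% in liver cKO, against 72.2 ± 4.46% in liver YFP+ cells (SD, n = 3 each). In the thymus there were 94.99, 74.1 and 102.5 times as many FPKM of Ifng as of Il4 in cKO libraries, against 4.22, 5.80 and 2.86 times in YFP+ libraries. In the liver the ratio was 2.42, 2.12 and 3.76 in cKO and 2.96, 3.31 and 4.32 in YFP+ libraries. The thymus groups were thus far apart in this ratio, and those of the liver overlapped. The ratio of Il4 to Il2 separated the groups in both tissues, with 0.149 to 0.367 in thymus cKO, against 4.75 to 5.37 in thymus YFP+ libraries, and 1.20 to 2.48 in liver cKO, against 7.96 to 13.7 in liver YFP+ libraries. Share and ratio are descriptions and were not tested.

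**Figure D3:**
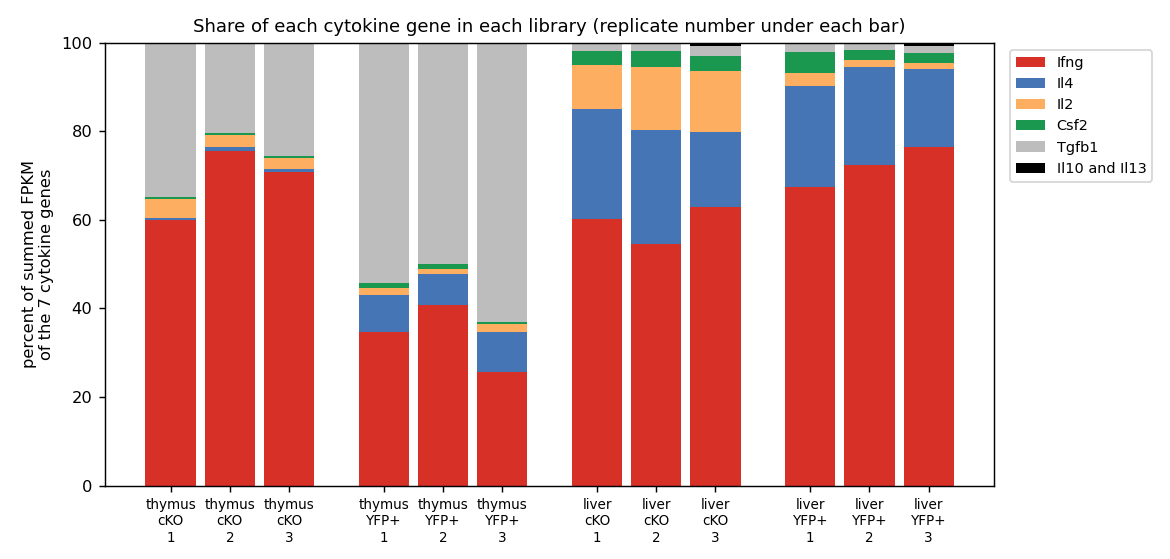
Percent of the summed FPKM of the 7 cytokine genes (vertical axis) that each gene made up, with a stacked bar for each library. Ifng holds 68.7% on average in thymus cKO and 33.7% in thymus YFP+ cells, where Tgfb1 holds most of the rest, and 59.2% in liver cKO and 72.2% in liver YFP+ cells.

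The order of the genes by level also differed. In thymus cKO cells it ran Ifng, Tgfb1, Il2, Il4 and Csf2, and in thymus YFP+ cells Tgfb1, Ifng, Il4, Il2 and Csf2. In liver cKO cells it ran Ifng, Il4, Il2, Csf2 and Tgfb1, with no overlap between neighbours. In liver YFP+ cells Ifng and Il4 led, and Csf2, Il2 and Tgfb1 overlapped. In each group Il13 and Il10 were the lowest of the 7.

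Among 24 other T cell cytokine and chemokine genes, 9 were tested in each tissue. In the thymus 1 rose and 2 fell in cKO cells, and in the liver 1 rose and 4 fell. Over all tested genes 15.7% were called in the thymus and 27.2% in the liver. Ccl5, a chemokine stored by memory T and NK cells, rose in both tissues, to 1159 ± 310 FPKM in thymus cKO, against 253 ± 17.0 FPKM in thymus YFP+ cells, and to 3634 ± 131 FPKM in liver cKO, against 2194 ± 248 FPKM in liver YFP+ cells (SD, n = 3 each; limma adjusted p = 0.000219 and 0.00121). In the liver the chemokine genes Ccl4 (5.73 ± 1.40 FPKM in cKO, 23.0 ± 4.70 FPKM in YFP+ cells) and Xcl1 fell (SD, n = 3 each, limma adjusted p = 0.000515 and 0.000751). Xcl1 was also called lower in thymus cKO cells, where Ifng rose (limma adjusted p = 0.0465, n = 3 each). That call held in 4 of 13 alternatives. The difference of Xcl1 between tissues of -0.14 did not pass (limma adjusted p = 0.746, n = 3 each). The thymus count was 1 higher and 4 lower without cKO replicate 1, and 1 higher and 1 lower when any other thymus library was left out. The median log2 difference of the tested list was -0.156 in the thymus, against -0.164 for all tested genes, and -0.519 in the liver, against -0.109 for all tested genes. The liver median rested on single libraries, at -0.108 without YFP+ replicate 2 and -0.0989 without YFP+ replicate 3. Il22, a neighbour of Ifng named here after its values were seen, was listed at 0 in all liver cKO libraries and at 0.615, 2.11 and 2.08 FPKM in liver YFP+ libraries.

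Of 16 receptor genes for the 7 cytokines, 10 were tested in the thymus, where 0 rose and 4 fell in cKO cells. In the liver 12 were tested, where 2 rose and 2 fell. The share called over all tested genes was 15.7% in the thymus and 27.2% in the liver. With median-ratio scaling 2 of the receptor genes rose and 1 fell in the thymus. The liver count of falls was 0 without cKO replicate 2 or YFP+ replicate 2, and 1 when cKO replicate 1 or 3 or the third YFP+ library was dropped. Il2rb, a signalling chain of the receptors for interleukin-2 and interleukin-15, had 266 FPKM in thymus cKO against 365 FPKM in thymus YFP+ cells, and 498 FPKM in liver cKO against 375 FPKM in liver YFP+ cells. It fell in the thymus (limma adjusted p = 0.00998, n = 3 each; 0.0759 with median-ratio scaling), rose in the liver (limma adjusted p = 0.00857), and differed between tissues by 0.86 (limma adjusted p = 0.000733). Il2ra, the chain that gives the interleukin-2 receptor its high affinity, fell to 0.998 FPKM in liver cKO, against 2.37 FPKM in liver YFP+ cells (limma adjusted p = 0.0134, n = 3 each; 0.0507 without cKO replicate 2 and 0.053 without YFP+ replicate 2). With a liver cKO mean under 1 FPKM, Il2ra entered the test through the YFP+ group. Il10ra, which binds interleukin-10, rose to 20.8 FPKM in liver cKO, against 10.9 FPKM in liver YFP+ cells (limma adjusted p = 0.00172, n = 3 each). Tgfbr3, which presents TGF-beta to its signalling receptors, fell to 0.836 FPKM in thymus cKO, against 5.40 FPKM in thymus YFP+ cells (limma adjusted p = 9.86e-05, n = 3 each). It too entered that test through the YFP+ group, where it is high.

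Of 32 genes for transcription factors known to act on cytokine genes, 28 were tested in the thymus, where 5 rose and 8 fell in cKO cells. In the liver 27 were tested, where 1 rose and 7 fell. Among all tested genes 15.7% were called in the thymus and 27.2% in the liver, and the liver count of this list was near that share. The thymus counts ranged from 1 to 5 higher and 4 to 14 lower over the alternatives, with 5 higher and 14 lower without cKO replicate 1, and 1 higher and 4 lower without cKO replicate 2 or YFP+ replicate 1. The AP-1 genes Fos, Fosb and Jun, which are switched on within minutes of a stimulus, had the same directions as Ifng in both tissues. Nfil3 and Junb had these directions too. Both rose in the thymus (log2 difference 0.82 and 0.74, limma adjusted p = 0.0382 and 0.0405, n = 3 each). In the liver Nfil3 fell (-0.48, limma adjusted p = 0.0407), while Junb, at -1.15, did not pass (limma adjusted p = 0.0775). Their differences between tissues of -1.30 and -1.89 passed (limma adjusted p = 0.00917 and 0.0354). Other genes of the list, among them Egr1 and Egr2, did not follow Ifng. Egr2 fell in thymus cKO cells (log2 difference -0.89, limma adjusted p = 0.00539, n = 3 each). With a thymus cKO mean just under 1 FPKM, it entered that test through the YFP+ group. Egr1 did not pass in the thymus or the liver (limma adjusted p = 0.595 and 0.834, n = 3 each). Fosb was at 10.00 ± 5.46 FPKM in thymus cKO against 0.784 ± 0.341 FPKM in thymus YFP+ cells, and at 4.09 ± 0.680 FPKM in liver cKO against 15.1 ± 2.77 FPKM in liver YFP+ cells (SD, n = 3 each; limma adjusted p = 0.00705 and 0.000366). Its difference between tissues was -4.13 (limma adjusted p = 0.000309, n = 3 each). With a thymus YFP+ mean under 1 FPKM, Fosb entered the thymus fit and the fit of the difference through the thymus cKO group, where it is high.

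Fos was at 58.8 ± 19.7 FPKM in thymus cKO against 15.7 ± 8.30 FPKM in thymus YFP+ cells, and at 16.4 ± 1.08 FPKM in liver cKO against 73.6 ± 6.24 FPKM in liver YFP+ cells (SD, n = 3 each). Its liver call (limma adjusted p = 7.44e-06, n = 3 each) and its difference between tissues of -4.04 (limma adjusted p = 0.000432) held in all alternatives. Its thymus call (limma adjusted p = 0.0223) was lost in 4 of 13, among them the fits without cKO replicate 2 or 3 or YFP+ replicate 1 (limma adjusted p up to 0.0794). The call of Jun in the thymus (limma adjusted p = 0.0418, n = 3 each) held in 4 of 13 alternatives. Within the thymus groups the libraries ranked alike by Ifng, Fos, Fosb and Jun in that cKO replicate 1 was the lowest of cKO, and YFP+ replicate 3 the lowest and replicate 2 the highest of YFP+. Hspa1a was also lowest in cKO replicate 1 among cKO and in YFP+ replicate 3 among YFP+ libraries. The part of these factors and of cell stress in the level of Ifng was not tested.

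Of Tbx21, Zbtb16 and Gata3, factors that define NKT subsets, 0 of 3 were called higher in the thymus. This is near the share over all tested genes, of which 2.64% were called higher there. Tbx21, which encodes T-bet, the driver of Ifng, had 65.6 ± 9.13 FPKM in thymus cKO and 73.9 ± 3.96 FPKM in thymus YFP+ cells (SD, n = 3 each) and did not pass the test in the thymus or the liver (limma adjusted p = 0.241 and 0.159). Zbtb16, which encodes PLZF, the factor of innate-like T cells, fell to 3.76 FPKM in thymus cKO, against 12.3 FPKM in thymus YFP+ cells (log2 difference -1.48, limma adjusted p = 0.000238, n = 3 each). In the liver it had 9.86 FPKM in cKO and 11.5 FPKM in YFP+ cells (limma adjusted p = 0.408, n = 3 each), and its difference between tissues of 1.3 passed (limma adjusted p = 0.00199). Gata3, a driver of Il4, had 43.7 FPKM in thymus cKO and 53.5 FPKM in thymus YFP+ cells, a call (limma adjusted p = 0.0323, n = 3 each) that held in 4 of 13 alternatives and reached 0.367 with median-ratio scaling.

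**Figure D4:**
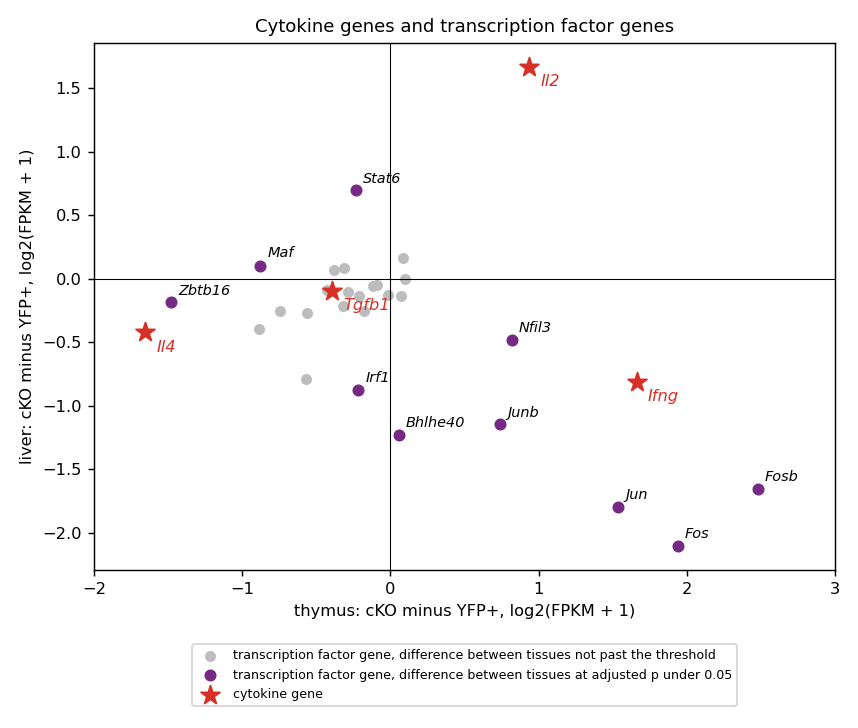
Log2 difference of cKO minus YFP+ in the thymus (horizontal axis) against the same in the liver (vertical axis) for 4 cytokine genes (stars) and the tested transcription factor genes (dots, coloured where the difference between tissues passed the limma test). Ifng lies at 1.66 and -0.81, at the lower right with Fos, Fosb and Jun, and Il4 lies near Zbtb16.

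Of 20 genes that respond to interferon-gamma, 18 were tested in the thymus and 0 passed with limma. An unadjusted p under 0.05 was found for 2 of them. Over all tested genes 2.64% were called higher and 13.1% lower in the thymus, and 7.49% and 19.7% in the liver. Having 0 called higher among so few genes is near that thymus share. The median log2 difference of the 18 genes was -0.42, against -0.16 for all tested genes. The median was -0.17 without cKO replicate 2 and -0.76 without cKO replicate 1. Without thymus cKO replicate 1, 0 rose and 16 of 17 fell, while the genes called over the whole thymus table numbered 2408 in that fit and 1429 with all libraries. In the liver 1 rose and 8 fell of 18 tested, against 2 and 4 with median-ratio scaling, 3 and 4 with quantile scaling, and 5 to 9 falls with a library left out (5 without cKO replicate 1 or 3 or YFP+ replicate 2 or 3). Psmb9, a subunit of the immunoproteasome, fell to 34.1 FPKM in liver cKO, against 103 FPKM in liver YFP+ cells (limma adjusted p = 0.000138, n = 3 each). The factor gene Irf1, itself induced by interferon-gamma, fell with a log2 difference of -0.87 (limma adjusted p = 0.000751, n = 3 each).

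For this list and those that follow here, the share called over all tested genes was 15.7% in the thymus and 27.2% in the liver. Of 21 genes for TGF-beta latency, activation and signalling, 12 were tested in the thymus, where 0 rose and 4 fell in cKO cells. In the liver 13 were tested, where 3 rose and 2 fell. Without thymus cKO replicate 1 the thymus count was 1 higher and 5 lower, and with median-ratio scaling 0 and 2. The rises in the liver rested on single libraries, with 0 without cKO replicate 1 and 1 without cKO replicate 2 or YFP+ replicate 2. Pmepa1, a target of the pathway that restrains it, fell to 2.15 FPKM in thymus cKO, against 9.88 FPKM in thymus YFP+ cells, and to 3.50 FPKM in liver cKO, against 6.20 FPKM in liver YFP+ cells (limma adjusted p = 0.000229 and 0.0117, n = 3 each). Skil, which encodes a repressor of SMAD factors, fell in the thymus by 0.74 on the log2 scale (limma adjusted p = 0.00201, n = 3 each). Of 14 genes for the decay and storage of cytokine messages, 2 rose and 2 fell of 13 tested in the thymus. In the liver 0 rose and 3 fell of 12 tested, which is near the share over all tested genes. None of the thymus calls was made with the replicate block or without YFP+ replicate 1, 2 or 3 or cKO replicate 2, and the split was 2 and 0 with median-ratio scaling. In the liver 1 fell without cKO replicate 1 or 3 or YFP+ replicate 2 or 3, and with median-ratio scaling 1 rose and 1 fell. Zfp36, whose protein binds AU-rich elements of cytokine messages, was called higher in thymus cKO cells (limma adjusted p = 0.0436, n = 3 each) in the fit of all libraries and in 4 of 13 alternatives. Zfp36l2, of the same family, fell in liver cKO cells by 0.57 on the log2 scale (limma adjusted p = 0.00224, n = 3 each). Of 20 genes that neighbour the cytokine genes on the chromosome, 2 of 6 tested fell in the thymus and 1 of 8 in the liver, which was Irf1. The thymus calls were those of B9d2, beside Tgfb1 (limma adjusted p = 0.0384, n = 3 each), and Mapkapk2, near Il10 (limma adjusted p = 0.0273, n = 3 each). Each held in 4 of 13 alternatives and was lost when any library other than cKO replicate 1 was left out.

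The genes most like each cytokine gene in pattern were taken by the root-mean-square distance of log2(FPKM + 1), centred within each tissue, over the 12 libraries and 8371 genes. Nearest to Ifng was Klf4, at a distance of 0.252, which encodes a Krüppel-like factor and had 4.52 FPKM in thymus cKO against 0.972 FPKM in thymus YFP+ cells, and 5.53 FPKM in liver cKO against 15.9 FPKM in liver YFP+ cells. Nearest to Il4 was Tex2, at 0.181, with 4.96 FPKM in thymus cKO against 15.2 FPKM in thymus YFP+ cells, and 9.64 FPKM in liver cKO against 12.2 FPKM in liver YFP+ cells. Nearest to Il2 was Slc17a9, a transporter of ATP into vesicles, at 0.302, with 11.99 FPKM in thymus cKO against 6.48 FPKM in thymus YFP+ cells, and 23.3 FPKM in liver cKO against 9.63 FPKM in liver YFP+ cells. The next were Klra14 and Klf6 for Ifng (0.296 and 0.300), B4galnt4 and Ctla2a for Il4 (0.204 and 0.234), and Tnfsf8 and Osbpl3 for Il2 (0.314 and 0.350). Klra14 belongs to a family of near-identical genes whose shared reads are divided by a model. Being chosen for their likeness, these genes have no test here. Tgfb1 varied too little within tissues to be compared in this way.

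Other cells that could pass the sort and make these cytokines were looked for by marker lists. In a bulk sample, fewer cells of a type and less RNA per cell cannot be told apart. Natural killer cells and type 1 innate lymphoid cells also make interferon-gamma. Their markers (6 of 6 in the table) summed to 267 to 314 FPKM in thymus cKO and 234 to 243 FPKM in thymus YFP+ libraries. The liver sums were 559 to 585 FPKM in cKO and 501 to 610 FPKM in YFP+ libraries. NKT cells themselves express many of these markers. In the thymus Klre1 (114 FPKM in cKO, 49.7 FPKM in YFP+ cells), Klrk1 (106 and 73.5 FPKM) and Tyrobp (11.7 and 4.985 FPKM) were higher in cKO cells. Gzma (60.0 and 110 FPKM) was lower, and Ncr1 and Eomes were under 1 FPKM in both groups. In the liver Klre1, Klrk1 and Ncr1 (2.19 FPKM in cKO, 0.318 FPKM in YFP+ cells) were higher in cKO cells, and Gzma was lower. Markers of type 2 innate lymphoid cells (6 of 6 in the table) summed to 3.79 to 4.53 FPKM in thymus cKO and 14.7 to 15.9 FPKM in thymus YFP+ libraries. That gap lay in Il17rb (1.335 FPKM in thymus cKO, 8.675 FPKM in thymus YFP+ cells) and Rora (1.83 FPKM in thymus cKO, 6.03 FPKM in thymus YFP+ cells), while Il1rl1, Areg and Klrg1 were higher on average in cKO cells, each under 1 FPKM in both groups. Mast cell and basophil markers, the other common source of interleukin-4, summed to 0.635 to 1.22 FPKM in thymus cKO and 0.788 to 1.13 FPKM in thymus YFP+ libraries, with Tpsb2 at 0 in both groups. In the liver they summed to 2.19 to 3.48 FPKM in cKO, with Mcpt8, Ms4a2 and Tpsb2 at 0, and to 6.68 to 7.38 FPKM in YFP+ libraries, with Mcpt8, Fcer1a, Ms4a2 and Prss34 at 0. The liver gap lay mostly in Hdc (2.68 FPKM in cKO, 5.02 FPKM in YFP+ cells) and Cpa3 (0.0783 and 1.585 FPKM). Prss34 and Fcer1a went the other way, at 0.174 and 0.0213 FPKM in liver cKO cells. Myeloid markers (8 of 9 in the table) summed to 30.4 to 36.2 FPKM in liver cKO and 72.2 to 103 FPKM in liver YFP+ libraries, and B cell markers (6 of 6) to 1.97 to 3.36 FPKM in liver cKO and 10.5 to 11.9 FPKM in liver YFP+ libraries. DP thymocyte markers (10 of 10) summed to 6.91 to 8.60 FPKM in thymus cKO and 17.4 to 22.2 FPKM in thymus YFP+ libraries, and to 25.3 to 26.3 FPKM in liver cKO and 82.8 to 92.8 FPKM in liver YFP+ libraries. Among them Dntt had 0.546 FPKM in liver cKO and 16.1 FPKM in liver YFP+ cells. Markers of regulatory T cells (6 of 6), a source of interleukin-10 and TGF-beta, summed to 18.4 to 27.8 FPKM in thymus cKO and 37.8 to 46.2 FPKM in thymus YFP+ libraries, while their defining gene Foxp3 was at most 0.066 FPKM in any library. Erythroid markers (6 of 6) summed to 0.179 to 108 FPKM in thymus cKO and 0.152 to 0.851 FPKM in thymus YFP+ libraries. Among them Hbb-b1 had 40.8, 0.034 and 5.51 FPKM in thymus cKO replicates 1, 2 and 3. The erythroid markers summed to 9.83 to 14.965 FPKM in liver cKO and 641 to 742 FPKM in liver YFP+ libraries. The myeloid, B cell, DP thymocyte and erythroid sums were thus all higher in liver YFP+ cells, as was Ifng. So were the liver sums of mast cell and basophil markers and of the NKT and T cell identity genes. Regulatory T cell markers summed to 55.0 to 64.9 FPKM in liver cKO and 87.3 to 99.0 FPKM in liver YFP+ libraries. Type 2 innate lymphoid cell markers had 5.12 to 5.69 and 6.44 to 11.9 FPKM. Hepatocyte markers (7 of 7) had 12.6 to 16.7 and 37.6 to 43.1 FPKM, mostly from Trf. Markers of gamma-delta T cells (3 of 6 in the table) went the other way, at 21.8 to 24.0 FPKM in liver cKO and 12.7 to 15.8 FPKM in liver YFP+ libraries. Of these, Sox13 (8.125 FPKM in liver cKO, 0.793 FPKM in liver YFP+ cells) and Cd163l1 (8.40 and 1.975 FPKM) were higher in cKO cells, and Blk (6.20 and 11.4 FPKM) was lower. The part of such cells in the cytokine results was not tested.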

How the data were processed

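Messenger RNA levels came from 12 libraries of sorted NKT cells. Per the labels' protocols, CD4+, CD8+ and DP thymocytes were depleted before the thymus sort, cDNA was made with SMARTer Ultra Low Input chemistry, and sequencing libraries with either TruSeq or ThruPLEX reagents, with no record of which library had which. The authors deposited FPKM, 1 table per tissue, made with TopHat2 (version 2.8.0 as written) and Cufflinks 2.1.1 on mm9, per the submitters' processing notes. FPKM divide by the total of a library, so an abundant transcript lowers all others in it, and absolute depth is unknown. The relative denominators of the libraries, read from low values, were 0.914 to 1.12 times that of the first cKO library of each tissue. Strand use in counting is not stated, so overlapping genes cannot be told apart.

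Groups follow titles and column headers, and 0 columns were left unmapped. The labels do not tie replicates to different animals. The p-values therefore reflect only how these libraries vary, which may be technical. The test was limma-trend (limma 3.58.1, R 4.3.3) on log2(FPKM + 1), which understates the change of low genes, with a minimum mean of 1 FPKM over the fitted libraries (in each tissue for the difference) and Benjamini-Hochberg adjustment over all tested genes at 0.05. The fits were tested on simulated data. The text names the 7 members, Rag1, Rag2, Tbx21, Gata3 and Zbtb16, up to 3 genes of each list by size of change among those that passed without overlap of the groups, and the 3 genes nearest to a member in pattern. Hspa1a, Il22, Egr1, Egr2, Nfil3 and Junb were chosen after their values were seen. Members and gene lists were chosen with earlier results of these data known. Promoters are RefSeq's for GRCm38.p6, with windows for 6 of the 7 genes, and motifs were searched on both strands. The alternatives were another pseudocount (0.1), no filter, median-ratio and quantile scaling, a replicate block, array weights, no variance trend and each library left out.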

Additional observations from a re-analysis of the deposited data

Results flagged for a closer look

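Ifng differed between tissues in the direction of its response. It was higher in cKO than in YFP+ cells of the thymus (log2 difference 1.66) and lower in cKO than in YFP+ cells of the liver (-0.81), in 3 of 3 libraries a group without overlap. The difference between tissues was -2.47 (limma adjusted p = 0.00061, 3 libraries a group).

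Il4 differed between tissues in the size of its response. It was lower in cKO than in YFP+ cells of the thymus (-1.65, no overlap) and its groups overlapped in the liver (-0.42). The difference between tissues was 1.23 (limma adjusted p = 0.011, 3 libraries a group). Both differences rest on the titles of the liver libraries, against which their descriptions stand.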

How the results depend on the processing

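In all 13 alternatives within a tissue, Ifng passed the limma test in both tissues (log2 difference 1.38 to 1.89 in the thymus, adjusted p 0.00141 to 0.0401, and -0.84 to -0.60 in the liver), as did Il2 (0.84 to 1.47 and 1.5 to 2.17) and Il4 in the thymus (-2.54 to -1.53). In all 19 alternatives the differences between tissues of Ifng (-2.70 to -2.19) and Il4 (1.09 to 2.09) passed. Tgfb1 in the liver (-0.09) was 0.0455 with array weights and 0.05003 without liver YFP+ replicate 1, over a range of -0.20 to 0.05003 with a library left out, and no setting gave a call. With array weights 4 of the cytokine genes, against 2, passed for the difference between tissues. Leaving out each library gave 3 to 4 cytokine genes called in the thymus, 2 to 2 in the liver and 2 to 3 between tissues.

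Counts over all genes depended on the setting. In the thymus 1429 genes were called, against 801 with no filter, 812 with median-ratio scaling, 826 with quantile scaling and 2798 with array weights, and 472 (without YFP+ replicate 3) to 2408 (without cKO replicate 1) with a library left out, each of the 6 moving the count by over 1.5 times. The liver gave 3940 with array weights and 1539 (without YFP+ replicate 2) to 2640 when a library was dropped, with 1623 and 1644 where that was cKO replicate 1 or 2, and the difference between tissues gave 2438 and 723 (without thymus YFP+ replicate 1; 748 without thymus cKO replicate 3) to 1375. Median-ratio scaling turned the split to 453 higher and 359 lower in the thymus, against 240 and 1189, to 1037 and 1036 in the liver, against 718 and 1889, and to 568 and 588 between tissues, against 701 and 448. The cause was not tested.

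The replicate numbers did not pair the libraries: deviations of same-numbered libraries correlated at -0.0634 to 0.0659. With the replicate number as a block 787 genes were called in the thymus and 772 for the difference between tissues, and Il4 in the liver passed. FPKM without read totals set no limit for the genes listed at 0.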
